A study of Sus scrofa with 9 samples.

Results

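The comparison described here set 6 of the 9 small RNA libraries of the series against each other, 3 from pig embryos at the pronuclear stage (PN embryos) and 3 from unfertilized oocytes held in the second meiotic metaphase (MII oocytes). Its members were the known mature miRNAs of the count table, taken as every name that began with miR- or let- once the species prefix and the marks of length or sequence variants had been dropped, so that all variants (isomiRs) of a miRNA were added together. Of 1084 mature names in the table, 505 were known miRNAs, 391 of these were listed above 0 in at least 1 of the 6 libraries, and 259 had enough counts to be tested. The other names were 76 hairpin arms written in lower case with p5 or p3 and 503 names with the prefix PC, whose meaning was not stated in the sources used here.

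The study collected cumulus-enclosed oocytes from the ovaries of postpubertal Long White gilts, matured them in vitro, and took the MII oocytes after the cumulus cells had been removed by vortexing in hyaluronidase. PN embryos were made by in vitro fertilization of such oocytes with semen of adult Landrace boars and were collected at the pronuclear stage. The third group of the series, mature sperm of adult Large White boars with 3 libraries, entered no test and is given only as a level beside some values. All groups were labelled as untreated, and RNA came from large pools of oocytes or embryos, so that the p-values measure the spread between 3 libraries a group and not between animals.

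A miRNA is a short RNA that guides an Argonaute protein to messenger RNAs through its seed, the bases near its 5′ end, and lowers their translation or stability. Before the embryonic genome is switched on, the 1-cell embryo holds the RNA stored by the oocyte together with what the sperm brings in, so a change in the level of a miRNA between these stages can come from decay, processing, delivery or synthesis, and a count table does not separate these.

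Mature sequences were available for the 4 miRNAs that the study took to reporter assays, as the mimics it used, and they are shown because each pair shares a seed. Capitals mark the seed, bases 2 to 8 counted from the 5′ end.
miR-2478 mimic: aUCCCACUucugacacca
miR-3968 mimic: aUCCCACUccugacacca
miR-125a mimic: uCCCUGAGacccuuuaaccugu
miR-125b mimic: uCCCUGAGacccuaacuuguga
The miR-2478 and miR-3968 mimics had 18 bases each and differed by 1 substitution, U9C, outside the shared seed. The miR-125a and miR-125b mimics had 22 bases each, shared a seed, and differed at 7 positions, all 3′ of it. The variant used as a mimic held between 97.3% and 98.9% of the counts of miR-2478, between 96.4% and 97.6% of those of miR-3968, between 88.3% and 90.1% of those of miR-125a and all counts of miR-125b in each of the 6 libraries.

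Of the 259 known miRNAs tested, 228 changed by less than a factor of 2 between MII oocytes and PN embryos. Of all 336 names tested 28 (8.33%), and of the known miRNAs 20 (7.72%), were called, that is, had an adjusted p-value (q) under 0.05 and a fold change of at least 2, with 13 known miRNAs (5.02%) higher and 7 (2.70%) lower in PN embryos. The higher ones included the red blood cell pair miR-451 and miR-144, miR-425-5p, miR-23b and miR-4454. The lower ones included the liver miRNA miR-122-5p, the muscle miRNAs miR-1 and miR-133a-3p, the neural miRNAs miR-124a and miR-9-2, miR-199a-5p and miR-101. Together the 13 rose from a mean of 0.291% to 0.768% of all counts, and the 7 fell from 0.297% to 0.0848%, so the calls concerned a small part of the small RNA pool.

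Smaller shifts were common. At q under 0.05 with no fold limit, 40 known miRNAs (15.4%) were higher and 50 (19.3%) lower in PN embryos, and with library totals in place of the TMM scaling the split was 48 higher and 38 lower. The libraries of the groups did not overlap for 126 of the 259 (48.6%), and among these were all 20 called miRNAs. The median log2 fold change was -0.01 over the known miRNAs and 0.03 over all 336 names tested. Among the 73 known miRNAs with a mean of at least 1000 CPM (the count divided by the library total and multiplied by 1000000), 42 passed q, 17 upward and 25 downward, yet only miR-23b and miR-4454 also passed the fold limit, and 62 changed by under 0.5 on the log2 scale.

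**Figure D1:**
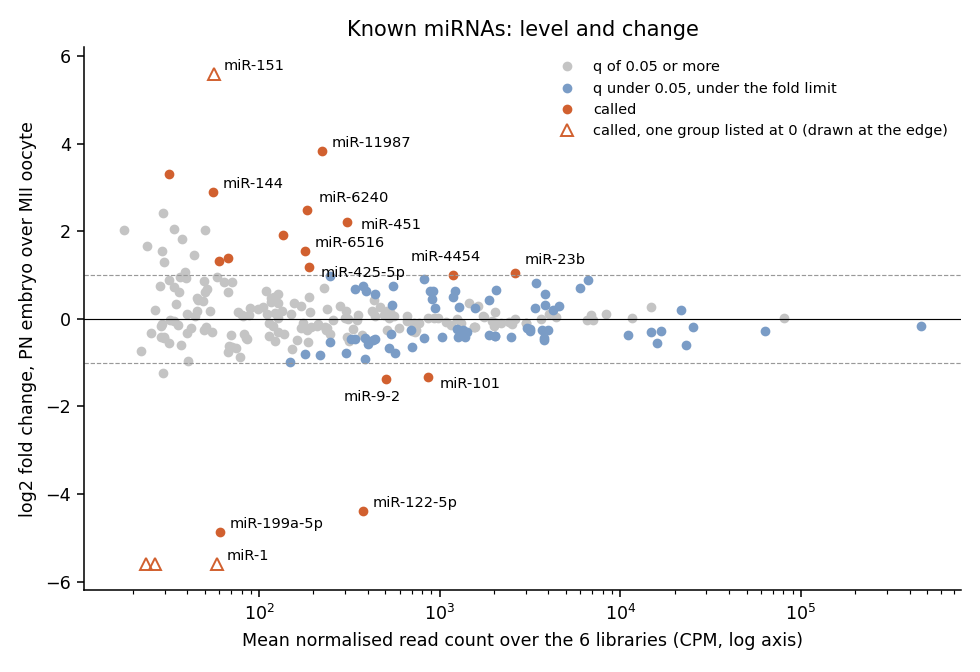
Each point is 1 of the 259 tested known miRNAs, with its mean CPM over the 6 libraries on a log axis and its fitted log2 fold change (PN embryo over MII oocyte) on the other. Dashed lines mark the fold limit, and triangles at the edge are the 4 called miRNAs listed at 0 in all libraries of a group, whose fitted change is no measure of size. Apart from miR-23b and miR-4454, the called miRNAs sit below 1000 CPM, while the abundant miRNAs on the right stay near 0.

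Library totals were 289183 to 381674 counts in MII oocytes and 422630 to 771001 in PN embryos. The ranges did not overlap, so depth and stage cannot be told apart from the totals alone. When every library was thinned to the depth of the shallowest, all 20 known miRNAs were called again, among 15 higher and 8 lower. Thinning started from the counts as listed, so a value already listed at 0 stayed at 0. For miRNAs with such values it cannot separate depth from stage. Values under 5 counts were listed irregularly, with 237 values of exactly 5 and only 28 whole values below 5 among 4043 values of rows that shared no counts, so a listed 0 may stand for up to 5 counts (13.1 to 17.3 CPM in MII oocytes and 6.49 to 11.8 CPM in PN embryos). MII oocyte library 3 stood somewhat apart: its counts differed from library 1 of the group by a chi-square of 11.4 per degree of freedom, against 2.53 to 3.21 between PN embryo libraries.

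The pair miR-451 and miR-144 rose together. Both are known from erythroid cells, and miR-451 is matured by the slicing activity of AGO2 without Dicer. Their genes were neighbours in RefSeq on assembly Sscrofa11.1, MIR451 at chr12:45088808-45088872 and MIR144 at chr12:45088958-45089033. miR-451 stood at 110, 134 and 62.2 CPM in MII oocytes and at 483, 495 and 550 CPM in PN embryos. The lowest embryo library was thus far above the highest oocyte library, and the log2 fold change was 2.22 ± 0.20 (SE, q = 3.8e-05). miR-144 was at 13.1, 23.4 and 0 CPM in MII oocytes and at 89.9, 115 and 90.8 CPM in PN embryos, a log2 fold change of 2.89 ± 0.66 (SE, q = 0.00798). In MII oocytes it was close to the listing limit in each library, so the size of its rise is less certain than its direction. In sperm, miR-451 lay between 44.4 and 101 CPM and miR-144 between 0 and 9.75 CPM, so neither was more abundant in sperm than in PN embryos.

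The other blood cell miRNAs did not all follow. Of 5 tested names in this group, 2 were called higher, against 5.02% of all known miRNAs tested, and none lower. The median log2 fold change was 2.06, against -0.01 over all known miRNAs tested. This median was the value of miR-144-5p, so both calls and the median came from the neighbouring genes of miR-451 and miR-144. The second arm, miR-144-5p, was at 15.7, 0 and 20.8 CPM before and 68.6, 48.9 and 49.3 CPM after fertilization (log2 fold change 2.06, q = 0.0702). miR-486, also erythroid, gave a log2 fold change of 0.47 (q = 0.139), and miR-142-5p, a leukocyte miRNA, gave -0.05 (q = 0.964). The myeloid miRNA miR-223 was listed at 0 in every MII oocyte library and at 10.1 to 24.6 CPM in PN embryos, too few counts to be tested. The summed level of the 6 blood markers was 166 to 314 CPM in MII oocytes and 837 to 875.5 CPM in PN embryos, and the part of blood cells in this rise was not tested. In pooled material such as this, more cells of a type cannot be told apart from more of the miRNA in each cell.

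Among miRNAs that are abundant in sperm, changes went in different directions. miR-425-5p was at 112.7, 113.6 and 107.2 CPM in MII oocytes, at 295.8, 221.5 and 289.2 CPM in PN embryos and at 19420 to 21272 CPM in sperm. The oocyte libraries were close to each other and all below the embryo libraries, with a log2 fold change of 1.18 ± 0.18 (SE, q = 0.0012). Its neighbour miR-191, which is transcribed from the same locus (MIR425 at chr13:31654994-31655073, MIR191 at chr13:31655484-31655563), went from 3775, 3897 and 4246 CPM to 5366, 5103 and 5191 CPM. This was a rise of 0.30 ± 0.06 on the log2 scale (SE, q = 0.00551), without overlap but under the fold limit.

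The miR-34 family, which is induced by p53 in many tissues and is rich in male germ cells, was split. miR-34b-3p stood at 537, 632 and 470 CPM in MII oocytes and at 1096, 1080 and 1087 CPM in PN embryos, a log2 fold change of 0.90 ± 0.10 (SE, q = 1.5e-04). Its level thus rose in all embryo libraries, just short of the fold limit. miR-34c instead fell from 1425, 1317 and 1466 CPM to 1067, 1221 and 1053 CPM (log2 fold change -0.42 ± 0.08, SE, q = 0.0028). Both were among the most abundant miRNAs of sperm, at 55297 to 57659 CPM for miR-34b-3p and 66453 to 71231 CPM for miR-34c. miR-449a, a relative of the family, had a log2 fold change of 0.95 with overlapping groups (q = 0.145). miR-190b, at 3190 to 3212 CPM in sperm, was listed at 0 in 5 of the 6 oocyte and embryo libraries.

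Over the 7 sperm markers the summed level was 5940 to 6453 CPM in MII oocytes, 7817 to 7912 CPM in PN embryos and 242407 to 246352 CPM in sperm. Of 7 tested names of that list, 3 passed q upward, 1 passed downward, and 1 was called. Over all known miRNAs tested, these shares were 15.4%, 19.3% and 7.72%. Among the 13 called higher miRNAs, 3 had a sperm mean above the PN embryo mean, namely miR-425-5p, miR-151 and miR-4332. How many of all known miRNAs tested had this was not counted, so no excess or lack can be read from it. The eggs were vortexed in hyaluronidase after fertilization to strip cumulus cells and surface sperm, and sperm that stayed attached and sperm RNA inside the embryo cannot be told apart in these libraries.

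**Figure D2:**
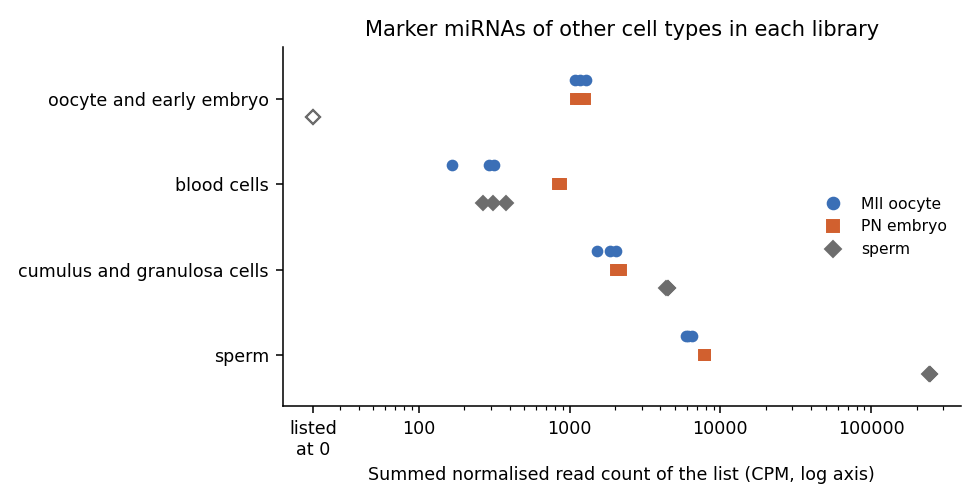
Summed CPM (log axis) of the miRNAs fixed as markers of sperm, cumulus and granulosa cells, blood cells, and oocytes and early embryos, with 1 symbol a library and open symbols for lists at 0. The sperm list is 7817 to 7912 CPM in PN embryos against 5940 to 6453 CPM in MII oocytes, and the blood list 837 to 875.5 against 166 to 314 CPM, both without overlap.

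Of 8 tested markers of cumulus and granulosa cells, 1 passed q upward and none was called, against 15.4% and 7.72% of all known miRNAs tested, and the summed level was 1525 to 2036 CPM in MII oocytes and 2025 to 2193 CPM in PN embryos. The one that passed was miR-132, an LH-responsive miRNA of granulosa cells, with a log2 fold change of 0.31 ± 0.08 (SE, q = 0.0177). It did not pass with the DESeq2 Wald test (0.33, q = 0.0639) or when the libraries were thinned to equal depth (0.24, q = 0.12). The median log2 fold change of the list was 0.28. Without passing q, miR-132-5p had 2.03 (q = 0.0649), miR-212 had 0.70 (q = 0.0503) and miR-224 had 0.60 (q = 0.298). Summed, the miR-132 and miR-212 names went from a mean of 655 to 989 CPM, without overlap. miR-202-5p, which is typical of gonads, stood at 930, 886 and 418 CPM in MII oocytes and at 646, 631 and 689 CPM in PN embryos, so that MII oocyte library 3 lay below and the other oocyte libraries above all embryo libraries (log2 fold change -0.28, q = 0.386). Without MII oocyte library 3 it passed q, at -0.54 (q = 9.0e-04). The smooth muscle and stromal miR-143-3p had a log2 fold change of -0.67 (q = 0.179).

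Markers of the labelled cells were partly present. miR-371-5p, of a cluster known from oocytes, early embryos and pluripotent cells, was at 1286, 1089 and 1172 CPM in MII oocytes and at 1107, 1063 and 1241 CPM in PN embryos, was listed at 0 in sperm, and had a log2 fold change of -0.15 (q = 0.212). Of the other 4 markers on that list, miR-302a and miR-367 were not listed in any of the 6 libraries and the names listed for the rest had too few counts to be tested. Summed, these names, miR-302b-3p and miR-302d-3p, were listed at 0 in every MII oocyte library and at 35.5, 18.7 and 16.9 CPM in PN embryos. A listed 0 in MII oocytes may stand for up to 13.1 to 17.3 CPM.

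The miR-23, miR-27 and miR-24 family group was split between neighbours. In mammals these 3 miRNAs are made from shared precursors at 2 loci, here MIR23B, MIR27B and MIR24-2 within chr10:27079417-27080276 and MIR23A, MIR27A and MIR24-1 within chr2:65308117-65308524. miR-23b went from 1563, 1731 and 1639 CPM to 3555, 3588 and 3645 CPM, a log2 fold change of 1.04 ± 0.06 (SE, q = 2.3e-06). The groups were tight and far apart, although without MII oocyte library 1 the log2 fold change was 0.99 and missed the fold limit. miR-23a went from 404.8, 404.4 and 373.5 CPM to 692, 760 and 671 CPM (log2 fold change 0.75 ± 0.09, SE, q = 2.7e-04). miR-24-3p, which both loci can give, went from 728, 662 and 695 CPM to 1098, 1153 and 1176 CPM (0.63 ± 0.07, SE, q = 1.1e-04).

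The middle members of both loci moved the other way. miR-27b-3p fell from 4442, 4000 and 4172 CPM to 3828, 3821 and 3661 CPM (log2 fold change -0.25 ± 0.05, SE, q = 0.00569). This fall did not pass q with library totals (-0.16, q = 0.0574) or with all 9 libraries in the fit (-0.23, q = 0.0743). miR-27a fell from 316, 274 and 264 CPM to 196, 203 and 231 CPM (log2 fold change -0.52 ± 0.13, SE, q = 0.0158). No library of either miRNA overlapped between the stages. Summed over members, the miR-23 family rose 2.11-fold and the miR-27 family stood at 0.889 of its oocyte level.

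**Figure D3:**
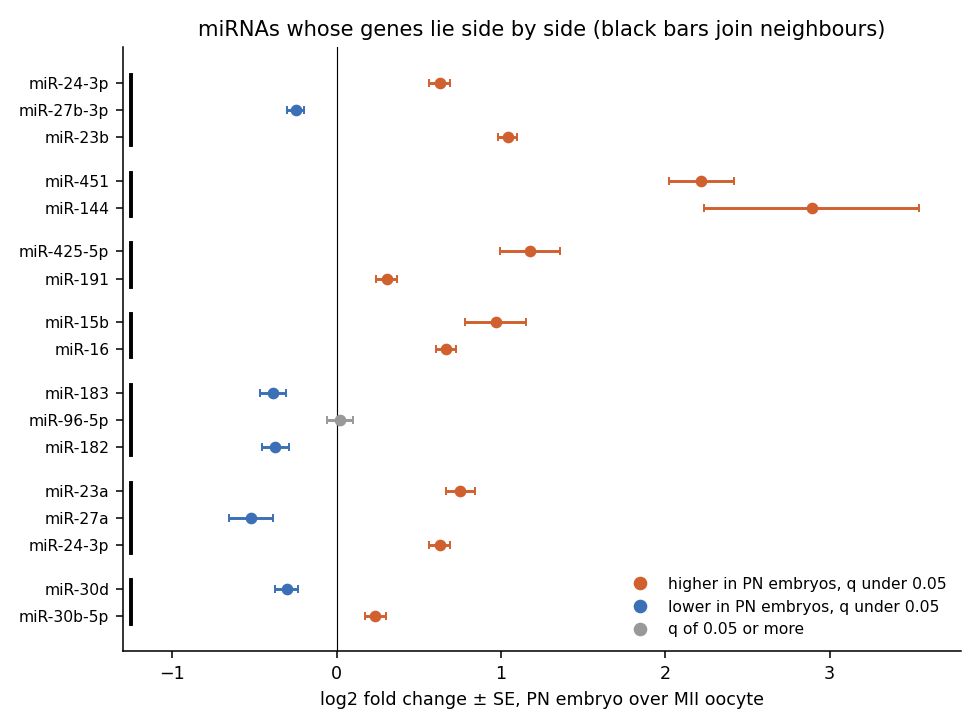
Fitted log2 fold change with its SE for miRNAs whose genes lie within 10000 bases of each other, for the 7 groups in which 2 or more members passed q, with black bars joining neighbours. miR-23a, miR-23b and miR-24-3p lie right of 0 and miR-27a and miR-27b-3p left of it, while miR-451 with miR-144, miR-425-5p with miR-191, and miR-15b with miR-16 lie on the same side.

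RefSeq gave a gene for 163 of the tested known miRNAs with the pig prefix, and among these genes there were 27 groups of 2 or more within 10000 bases of each other. In 4 groups 2 or more members passed q in the same direction, in 3 groups members passed in both directions, in 10 groups 1 member passed and in 10 none did. miR-15b and miR-16, which restrain cyclins and BCL2, rose side by side from MIR15B at chr13:100083172-100083269 and MIR16-1 at chr13:100083329-100083405. miR-15b was at 168, 200 and 111 CPM in MII oocytes and at 331, 352 and 318 CPM in PN embryos (log2 fold change 0.97 ± 0.19, SE, q = 0.00356). miR-16, which has a second gene beside MIR15A, went from 1617, 1541 and 1421 CPM to 2648, 2579 and 2512 CPM (0.66 ± 0.06, SE, q = 4.2e-05). Both rose in every embryo library relative to every oocyte library.

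Other neighbours differed. miR-30d fell by 0.30 and its neighbour miR-30b-5p rose by 0.24 on the log2 scale (q = 0.00902 and 0.019). miR-183 and miR-182, sensory organ miRNAs of a shared precursor, fell by 0.39 and 0.37 (q = 0.00446 and 0.00769), whereas miR-96-5p between them had a log2 fold change of 0.02 (q = 0.882). Within miR-17 to miR-92a, the cluster first known as an oncogene, miR-20a-5p fell by 0.49 (q = 0.00124) and the other 5 tested names did not pass q. miR-99b had a log2 fold change of 0.42 (q = 0.00207), and its neighbours let-7e and miR-125a had 0.02 and -0.08 (q = 0.924 and 0.434).

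Names that are not in the pig set of the table made up 76 of the 259 tested, and 7 of these were called higher and none lower. Among the names with a pig row, the larger rest of the 259, 6 were called higher and 7 lower. Over all known miRNAs tested, 5.02% were called higher and 2.70% lower. Whether the names with and without a pig row differed in these shares was not tested. Several of the abundant names outside the pig set rose alike. miR-1260 went from 4628, 4478 and 4267 CPM to 8970, 8454 and 8844 CPM, a log2 fold change of 0.88 ± 0.05 (SE, q = 2.2e-06). miR-7977 went from 2253, 2530 and 2308 CPM to 4454, 4366 and 4587 CPM (log2 fold change 0.83 ± 0.06, SE, q = 1.2e-05). miR-4454 went from 841, 762 and 657 CPM to 1675, 1594 and 1595 CPM, and its log2 fold change of 1.01 ± 0.08 (SE, q = 2.3e-05) passed the fold limit, but not without MII oocyte library 3, where it was 0.94. In all of these every embryo library was above every oocyte library, and sperm held at most 114.5 CPM of any of them. All 3 tested names of the miR-1260 family passed q upward. Whether the counts under these names come from miRNAs or from fragments of transfer RNA was not tested.

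Of the 2 miRNAs shown above with the seed UCCCACU, miR-3968 was at 4331, 4545 and 4274 CPM in MII oocytes and at 7498, 7652 and 7655 CPM in PN embryos, a log2 fold change of 0.70 ± 0.05 (SE, q = 6.3e-06). miR-2478 was at 3768, 3810 and 3624 CPM in MII oocytes and at 4368, 4297 and 4290 CPM in PN embryos, a log2 fold change of 0.12 ± 0.05 (SE, q = 0.0899). The CPM ranges of both were apart, but after TMM scaling only miR-3968 passed q. miR-2478 did pass with library totals (0.21, q = 0.0077) and when the known names were fitted alone (0.15, q = 0.0244), and the difference between the members was not tested. Both mimics ended in CCA, as mature transfer RNAs also do, and whether the counts under these names come from transfer RNA was not tested.

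In the pair with the seed CCCUGAG, miR-125b, among the 10 most abundant miRNAs of both groups, went from 20054, 18771 and 19417 CPM to 24040, 24148 and 23239 CPM (log2 fold change 0.20 ± 0.04, SE, q = 0.0051). miR-125a went from 2261, 2410 and 2614 CPM to 2461, 2500 and 2359 CPM, with overlapping groups (log2 fold change -0.08 ± 0.07, SE, q = 0.434). With library totals in place of TMM the log2 fold change of miR-125a was 0.01.

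The remaining miRNAs called higher were of low level. miR-11987 rose most among those seen in every library, from 13.1, 50.1 and 20.8 CPM to 447, 397 and 406 CPM (log2 fold change 3.84 ± 0.30, SE, q = 1.8e-05). Its oocyte values were 5, 15 and 6 counts, at or near the listing limit. Without MII oocyte library 1 the log2 fold change was 3.43 and without library 2 it was 4.59. The size of this rise is thus less certain than its direction. miR-6240 went from 73.4, 23.4 and 58.8 CPM to 317, 296 and 338 CPM (2.49 ± 0.28, SE, q = 1.6e-04), and miR-6516 from 118, 93.6 and 45.0 CPM to 246, 296 and 274 CPM (1.55 ± 0.26, SE, q = 0.00174). None of these overlapped between groups.

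The rise of 4 others was less secure. miR-2904 was at 115, 16.7 and 24.2 CPM before and 159, 230 and 269 CPM after fertilization (log2 fold change 1.91, q = 0.0182). miR-4332 was listed at 0, 16.7 and 0 CPM in MII oocytes and at 49.7, 56.1 and 67.4 CPM in PN embryos (3.31, q = 0.0238), which rests on 5 counts in 1 oocyte library. miR-1260a was at 31.4, 50.1 and 24.2 CPM and then at 114, 96.4 and 86.3 CPM (1.38, q = 0.0231). miR-103-3p, of rows with no pig prefix, was at 21.0, 33.4 and 44.9 CPM and then at 85.2, 73.3 and 102 CPM (1.32, q = 0.0397). Leaving out PN embryo library 2 or 3 raised q above 0.05 for each of these 4, and so did leaving out PN embryo library 1 for all but miR-2904, with q between 0.0523 and 0.162, and miR-103-3p was also lost without MII oocyte library 1 or 2 (q = 0.0745 and 0.0596).

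Variant rows set some of these calls. The far more abundant pig miR-103, at 11158 to 11194 CPM in MII oocytes and 11883 to 12115 CPM in PN embryos, had a log2 fold change of 0.01 (q = 0.915). miR-151 without an arm was listed at 0 in all MII oocyte libraries and at 92.3, 134 and 113 CPM in PN embryos. Against 5 counts a library this was at least 7.20-fold higher, or at least 2.40-fold when its 3 rows of identical counts were taken as 1. The pig names of the same hairpin, miR-151-5p and miR-151-3p, had log2 fold changes of 0.26 (q = 0.0148) and -0.30 (q = 0.0634), and miR-151-5p alone held 2690 to 3928 CPM.

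Some names outside the known set were called too. Of the 336 names tested 259 were known. Among the rest 8 were called, all higher in PN embryos, 4 hairpin arms and 4 PC names. Over all names tested the called share was 8.33%, and whether these names differed from it was not tested. mir-6240-p5 went from 2003, 1826 and 2068 CPM to 9343, 10455 and 10403 CPM, a log2 fold change of 2.27 ± 0.06 (SE, q = 2.3e-08). mir-6236-p5 was listed at 0 in MII oocytes and at 1025, 925 and 924 CPM in PN embryos. Whether the counts of these arms come from ribosomal or other RNA was not tested. Hairpin arm names held 0.299% ± 0.00937 of all counts before and 1.32% ± 0.0865 after fertilization (SD, n = 3 libraries each). By the CPM values above, most of this rise came from mir-6240-p5. Known miRNAs held 98.6% ± 0.0608 before and 97.4% ± 0.145 after it (SD, n = 3 each). Neither range overlapped, and the two-sided exact permutation test gave p = 0.1 for both, the smallest value that 3 libraries against 3 allow. Counting identical rows once left the first difference at 0.424 and the second at -0.661 percentage points.

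In the other direction, miR-122-5p had the smallest q. miR-122 makes up most of the miRNA of liver cells. It stood at 794, 642 and 702 CPM in MII oocytes and at 40.2, 25.9 and 42.8 CPM in PN embryos, from MIR122 at chr1:162329776-162329860. Every embryo library lay more than an order of magnitude below every oocyte library, and the log2 fold change was -4.39 ± 0.18 (SE, q = 2.5e-07). Sperm held 2020 to 2062 CPM of it, more than either group.

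The neural miRNA miR-9-2 showed the same order of groups at higher level. It was at 833, 832 and 484 CPM in MII oocytes, at 265, 342 and 270 CPM in PN embryos and at 7291 to 7482 CPM in sperm. The groups did not overlap, and the log2 fold change was -1.38 ± 0.20 (SE, q = 7.8e-04). miR-101, which restrains the histone methyltransferase EZH2, went from 1470, 1190 and 961 CPM to 514, 560 and 475 CPM, a log2 fold change of -1.32 ± 0.14 (SE, q = 1.0e-04). RefSeq placed miR-101 at both MIR101-1 (chr1:217152783-217152873) and MIR101-2 (chr6:147330891-147330971), and the table split its counts evenly between 2 rows.

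The remaining 4 stood at or near the listing limit in PN embryos. miR-1, the heart and skeletal muscle miRNA of MIR1 at chr17:61894036-61894143, was at 207, 96.9 and 48.4 CPM in MII oocytes and at 0 in all PN embryo libraries. The oocyte libraries spanned a wide range, and against 5 counts a library the level was at least 13.8-fold lower in PN embryos. miR-133a-3p, made with miR-1 in muscle, was at 39.3, 53.5 and 48.4 CPM and then at 0, at least 5.54-fold lower. The neuronal miR-124a was at 68.1, 53.5 and 38.0 CPM and then at 0, at least 6.26-fold lower. With their identical rows counted once, miR-133a-3p and miR-124a fell under the minimum count, and these bounds were 2.77 and 3.13. miR-199a-5p, a miRNA of mesenchymal cells, was at 139, 100 and 114 CPM and then at 0, 0 and 10.4 CPM (log2 fold change -4.87 ± 0.86, SE, q = 0.00223).

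A second arm of 1 of these hairpins and another muscle miRNA stayed at higher levels in PN embryos. The other arm, miR-199a-3p, fell from 728, 645 and 515 CPM to 374, 495 and 403 CPM, a log2 fold change of -0.66 ± 0.14 (SE, q = 0.00602). miR-499-5p, a muscle miRNA held in a myosin gene, was at 1352, 1330 and 923 CPM and then at 1323, 1244 and 1284 CPM, with a log2 fold change of 0.00 ± 0.12 (SE, q = 0.993). Of the 7 called lower miRNAs all carried the pig prefix, 5 had a sperm mean above the PN embryo mean, and 2, miR-122-5p and miR-9-2, were also higher in sperm than in MII oocytes. These 7 were picked as low in PN embryos, and no such share over all known miRNAs tested was counted.

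**Figure D4:**
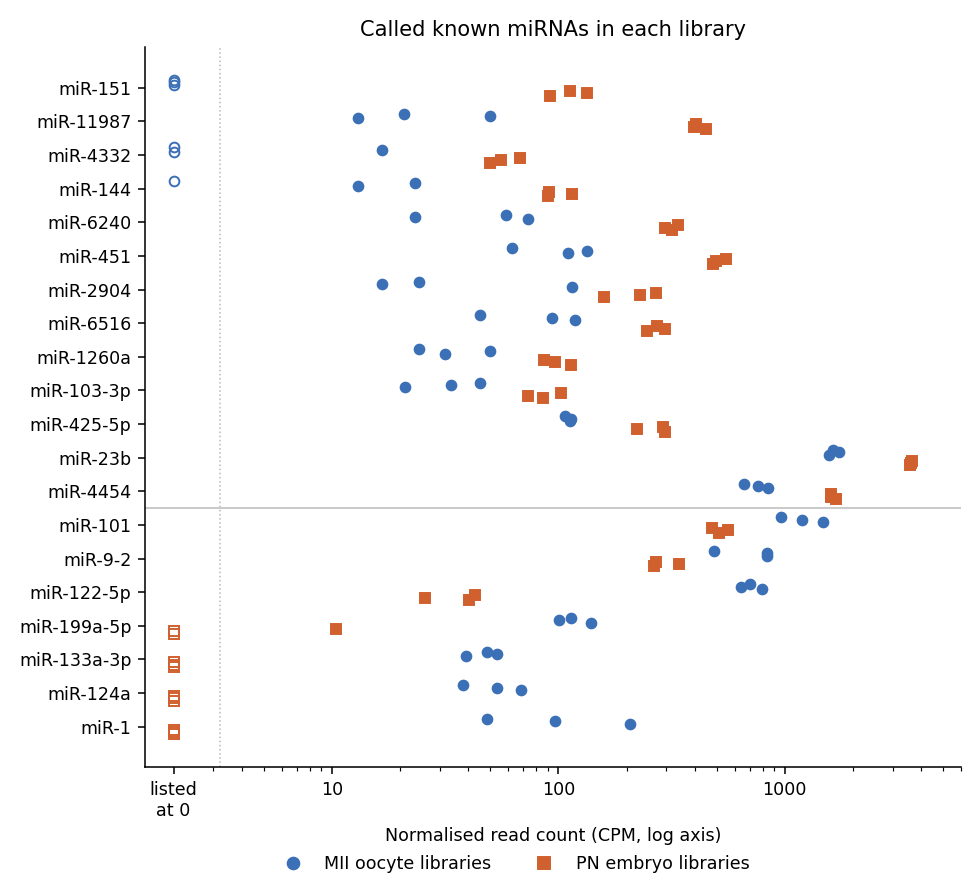
CPM (log axis) of the 20 called known miRNAs in each MII oocyte library (circles) and PN embryo library (squares), ordered by fitted log2 fold change, with open symbols for values listed at 0. Above the grey line every embryo library lies right of every oocyte library, and below it the order is turned, with miR-1, miR-124a and miR-133a-3p at 0 in all embryo libraries.

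The most abundant miRNAs changed by small amounts. The epithelial miRNA miR-205 took 457971, 470040 and 492847 CPM in MII oocytes and 457932, 451440 and 451824 CPM in PN embryos, more than any other miRNA. The log2 fold change was -0.15 ± 0.04 (SE, q = 0.0255) with TMM and -0.06 (q = 0.232) with library totals, so no firm fall was seen. miR-21-5p, at 71031 to 81659 CPM before and 82585 to 84523 CPM after fertilization, had a log2 fold change of 0.01 ± 0.05 (SE, q = 0.885). miR-128, a neuronal miRNA, went from 72693, 64659 and 64897 CPM to 58964, 60251 and 58842 CPM (-0.27 ± 0.04, SE, q = 0.0015).

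miR-148a-3p fell at high level. It represses the DNA methyltransferase DNMT1 in other cells, and went from 28249, 27308 and 26105 CPM to 19114, 18643 and 19826 CPM, a log2 fold change of -0.59 ± 0.04 (SE, q = 1.0e-05). Its other arm, miR-148a-5p, fell with it from 167.7, 213.9 and 197.1 CPM to 82.8, 115 and 108 CPM (-0.99 ± 0.21, SE, q = 0.00605), just inside the fold limit. miR-30a-5p went from 16674, 19146 and 19725 CPM to 13537, 12885 and 13960 CPM (-0.55 ± 0.07, SE, q = 5.9e-04), and miR-30d and miR-10b fell by 0.30 and 0.28 (q = 0.00902 and 0.00167). miR-320 had a log2 fold change of -0.19 (q = 0.0283), which did not pass with library totals (q = 0.169) nor without any 1 library other than MII oocyte library 1 (q = 0.0542 to 0.223). Without MII oocyte library 2 or any 1 PN embryo library, q was 0.0582 to 0.086 for miR-30d, 0.0533 to 0.0712 for miR-182 and 0.147 to 0.237 for miR-205. let-7a had 0.28 ± 0.12 (SE, q = 0.121), with 15135, 13809 and 9776 CPM in MII oocytes and 16452 to 17061 CPM in PN embryos. It passed q without MII oocyte library 1 (0.40, q = 0.0269) and without library 3 (0.14, q = 0.0258).

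Several mid-level miRNAs shifted just as tightly. miR-31 rose from 3039, 2917 and 2960 CPM to 4694, 4879 and 4527 CPM (log2 fold change 0.57 ± 0.05, SE, q = 3.8e-05). miR-181a, which tunes T cell receptor signalling, rose from 833, 889 and 1051 CPM to 1566, 1445 and 1547 CPM (0.63 ± 0.10, SE, q = 0.0011). miR-186-5p fell from 867, 795 and 844 CPM to 573, 547 and 586 CPM (-0.65 ± 0.07, SE, q = 1.9e-04). miR-210, the best known miRNA of the hypoxia response, fell from 804, 642 and 647 CPM to 466.1, 463.1 and 382.6 CPM (-0.78 ± 0.12, SE, q = 0.0012). miR-221-3p, a repressor of the cell cycle inhibitor p27, fell by 0.57 (q = 0.0028), and miR-146a-5p, a brake on NF-kB signalling, by 0.26 (q = 0.00226). None of these overlapped between the stages.

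The list of 55 families had 52 with a tested member and 147 tested names, 13 of them called, against 7.72% over all known miRNAs tested. Of 34 families with 2 or more tested members, 12 had at least 2 members past q in 1 direction and none in the other, 4 had members past q in both directions, 11 had 1 member past q and 7 had none. Over all known miRNAs tested, 15.4% passed q upward and 19.3% downward, beside which the family counts below are to be read. In let-7 and miR-98, which hold back growth genes, 1 of 13 tested names passed q, let-7d-5p with a log2 fold change of 0.63 (q = 7.1e-04), and the family median was 0.02. In miR-30, 3 of 7 passed downward and 1 upward (median -0.30). In miR-10, miR-99 and miR-100, 2 of 6 passed in each direction (median -0.08). In miR-17, miR-20, miR-93 and miR-106, 2 of 7 passed downward (median -0.21). In the epithelial family of miR-200, miR-141 and miR-429 none of 4 passed (median -0.26).

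**Figure D5:**
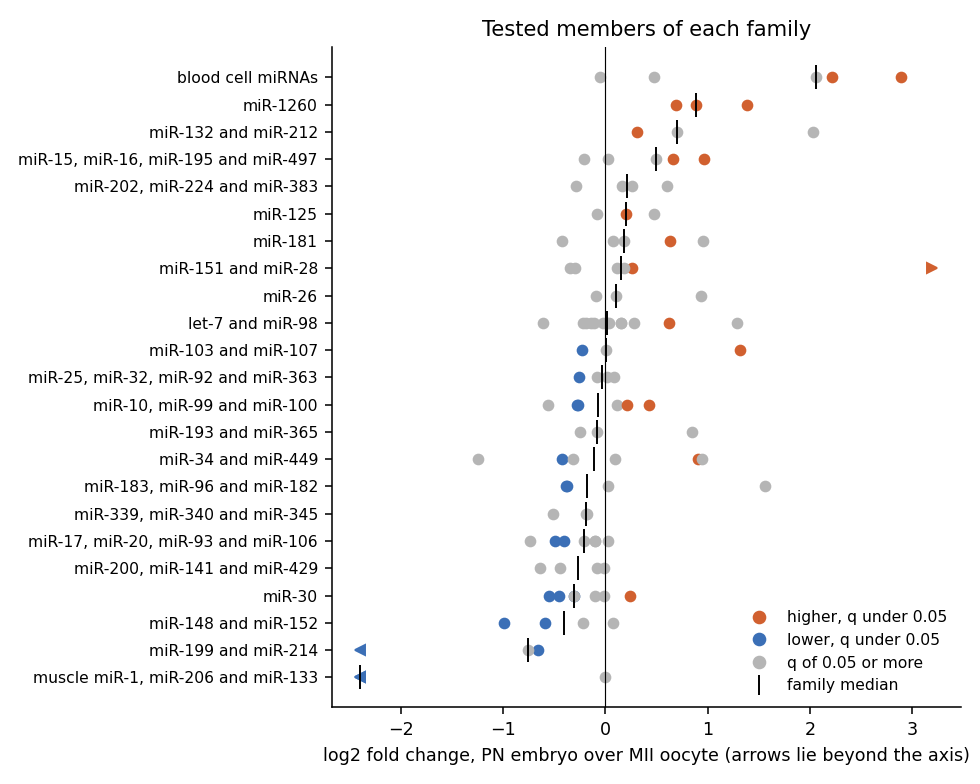
Fitted log2 fold change of every tested member for families with at least 3 tested names, ordered by the family median (black bar), with arrows for values beyond the axis. Orange and blue points passed q. Blood cell miRNAs (median 2.06) and miR-1260 (median 0.88) lie furthest right, and most other medians lie near 0. The median of the muscle group, at the left edge, is the fitted value of miR-133a-3p, which was listed at 0 in PN embryos and so gives no measure of size.

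The remaining families are given by their most abundant tested member. Passing q upward were miR-151-5p at 0.26 and, as above, miR-132 and miR-181a. Passing downward were miR-22-3p at -0.30 and miR-423-5p at -0.23. Not passing were miR-378 at -0.87 (q = 0.107), miR-19b at -0.35 (q = 0.0634), miR-18a at -0.31, miR-29a-3p at -0.26 (q = 0.0743), miR-194a-5p at -0.24, miR-339-5p at -0.18, miR-375 at -0.13, miR-193a-5p at -0.09 and miR-200c at -0.08. Leaving out MII oocyte library 3 brought miR-378 to -1.07 (q = 0.0344) and miR-29a-3p to -0.32 (q = 0.0242), and leaving out library 1 brought miR-339-5p to -0.25 (q = 0.0345). miR-423-5p did not pass without MII oocyte library 2 or PN embryo library 2 or 3 (q = 0.0762 to 0.15). On the other side of 0, miR-92a at 0.09, miR-26a at 0.11, miR-155-5p at 0.36 (q = 0.0921), miR-130b-5p at 0.62 (q = 0.246) and miR-203 at 0.76 (q = 0.671) did not pass either. miR-155-5p passed without MII oocyte library 2 (0.59, q = 0.00327). miR-203 was listed in MII oocyte library 1 alone of its group, and without that library the fitted value was 7.19 (q = 0.0281), which against a group at 0 is no measure of size. Each of these values is a log2 fold change of PN embryos over MII oocytes.

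Among 39 pairs of tested names of 1 hairpin, both passed q in 4, always in the same direction, 1 of the pair passed in 23 and neither in 12, while over all known miRNAs 90 of 259 names passed. Not all of these pairs are 2 arms. Some set a name without an arm beside an arm, such as miR-339 with miR-339-5p and miR-9226 with miR-9226-5p, which share some counts. Both arms of miR-148a, miR-30a and miR-199a fell, as described for miR-148a and miR-199a, and miR-30a-3p fell by 0.46 (q = 0.00764). The other pair with both past q was miR-151, which has no arm and was listed at 0 in MII oocytes, with miR-151-5p. In let-7d the 5p arm rose from 773, 622 and 619 CPM to 1077, 1164 and 1082 CPM, while the 3p arm, let-7d-3p, stood at 526 to 685 CPM and 535 to 586 CPM (log2 fold change -0.22, q = 0.145). In miR-361 the 3p arm fell by 0.79 (q = 0.00124) and the 5p arm, with 2431 to 2680 CPM in the 6 libraries, had a log2 fold change of -0.01 (q = 0.916). Whether the arms of a pair differed from each other was not tested.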

How the data were processed

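The authors ligated adapters to total RNA, reverse transcribed, amplified and size-selected it, and sequenced it. As deposited, the table held estimated counts for each listed small RNA, not normalized, and 18.7% of values above 0 in the 6 libraries were not whole, the pattern that dividing reads among rows leaves. The aligner, caller and filter were not given in the sources used here, and the submitters' processing notes named the build Sscrofa 11.1. The table had 1420 rows and 0 further columns of sample values.

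Counts were summed by mature name and rounded. The 3 PN embryo and 3 MII oocyte libraries entered the quasi-likelihood test of edgeR 4.0.16 (R 4.3.3) with TMM, filterByExpr by group (minimum count 10) and Benjamini-Hochberg adjustment over all 336 names tested, which held 99.7% of counts. Calls needed q under 0.05 together with a log2 fold change of 1 or more in size. Families describe names only and were not tested as sets. Replicate libraries differed by a chi-square of 2.53 to 11.4 per degree of freedom, more than sampling noise, and were kept as labelled. Without molecular identifiers PCR copies cannot be set apart, so limits from counts cover counting error only. Gene positions came from RefSeq on Sscrofa11.1, which lists no strand here.

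Named miRNAs were all called known ones, the 10 most abundant in each group, the 10 with the smallest q under the fold limit, the most abundant tested member of each family, and the 4 of the reporter assays. Other names given as neighbours, arms, relatives or markers were added after their values were seen. The members, families and lists were chosen with earlier results of these data known. Alternatives were DESeq2 1.42.0 size factors and Wald test, library totals, other filters, all 9 libraries, a replicate block, other ways of counting rows, thinning, other limits, and leaving out each library.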

Additional observations from a re-analysis of the deposited data

How the results depend on the processing

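Over the 18 alternative fits, 42 of the 74 named miRNAs with a fit kept their direction and their side of q 0.05 throughout, and 12 of the 20 called known miRNAs were called in every fit that could be run for them. Against 28 called names, with 13 known miRNAs higher and 7 lower, the rows with the pig prefix alone gave 14, with 7 known miRNAs higher, because fewer names entered. Dropping the fold limit gave 104 names, 40 higher and 50 lower. Leaving out 1 library at a time gave 26 to 41 called names, 9 to 18 known miRNAs higher and 7 to 10 lower. A replicate block gave 20 names, 9 higher and 6 lower, but same-numbered libraries did not deviate together (r of -0.061, -0.11 and -0.092), so the libraries were not treated as paired. Counting identical rows once moved the difference in share of counts to -0.661 percentage points for known miRNAs and 0.424 for hairpin arms. Leaving out 1 library gave -1.31 to -1.18 for known miRNAs, 0.989 to 1.07 for hairpin arms and 0.184 to 0.24 for PC names.

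Signs turned only for miRNAs near 0 that passed q in no fit, and the cause was not tested. The log2 fold change of miR-499-5p turned to 0.023 with DESeq2 size factors, 0.089 with library totals, 0.028 with the Wald test, 0.026 with at least 10 counts in 3 libraries, 0.049 with no filter, 0.022 with all 9 libraries, 0.019 under the replicate block, 0.011 with identical rows once, 0.021 with the leading row alone, 0.055 with the pig prefix alone, 0.034 with known names alone and 0.022 when thinned. With library totals miR-125a, miR-193a-5p and miR-200c turned to 0.0099, 0.0031 and 0.010. When thinned, miR-103 and miR-21-5p turned to -0.024 and -0.011. Without 1 library, miR-103 ran from -0.0051 to 0.042, miR-193a-5p from -0.12 to 0.030, miR-21-5p from -0.026 to 0.076, miR-375 from -0.25 to 0.047 and miR-499-5p from -0.13 to 0.11. At these depths miRNAs near the listing limit of 5 counts could not be compared.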

Other observations

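Some groups outside the families named above were looked at after their values were seen. Of the X-linked miRNAs known from testis and sperm, miR-508-3p fell by 0.45 (q = 0.0109), miR-514 by 0.43 (q = 0.00439) and miR-507a by 0.40 (q = 7.1e-04) on the log2 scale, whereas miR-509a-5p rose by 0.27 (q = 0.0104). miR-424-5p, a relative of miR-16, fell by 0.82 (q = 0.00724) from 220, 304 and 297 CPM to 140, 171 and 178 CPM, and miR-503 fell by 0.49 (q = 0.0363). miR-338, a miRNA of nerve and glia, fell by 0.92 (q = 4.3e-04) from 480, 551 and 443 CPM to 260, 270 and 297 CPM. miR-184 rose by 0.75 (q = 0.0177).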
